A study of Homo sapiens with 12 samples.

Results

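The FAT and Dachsous group comprised 7 genes of the 19225 entries in the count table, taken by symbol: the 4 FAT cadherins (FAT1, FAT2, FAT3 and FAT4), their Dachsous ligands (DCHS1 and DCHS2) and the kinase FJX1. They were measured by poly(A) RNA sequencing in HN6 and HN30, established cell lines of human oral squamous cell carcinoma (OSCC). Each line was transfected with a scrambled siRNA (NC) or with one of 2 siRNAs against FAT1 (siFAT1-1 and siFAT1-2, which the sample titles write as sh1 and sh2), and RNA was collected 24 h later. Each of the 6 conditions was repeated 2 times, giving 12 libraries. The knockdown was transient, every library including NC had been through siRNA transfection, and no untransfected cells were analysed here. The labels mark the repeats as separate times of one line. P-values between the lines with NC, within one line, or for the knockdown compared between lines came from fits of 6 group means. These measure the spread between the repeats. P-values over both lines, for both siRNAs, either siRNA or their difference, came from fits with cell line as a term. There the spread also holds any difference of the siRNA effect between lines and, with both siRNAs pooled, between siRNAs.

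FAT and Dachsous proteins are giant cadherins, with long chains of cadherin repeats outside the cell and a single span of the membrane. FAT4 binds DCHS1 on the neighbouring cell, and the Golgi kinase FJX1 belongs to the Four-jointed family, which phosphorylates cadherin repeats and so tunes that binding. The pathway is known for planar cell polarity and for growth control through Hippo signalling. FAT1 binds Ena/VASP proteins and acts on actin and cell contacts, FAT2 is known from keratinocytes and cerebellar granule cells, and FAT3 is known from neurons.

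Both siRNAs against FAT1 were matched to the coding sequence of FAT1 on the minus strand of chromosome 4 (GENCODE 44, hg38). siFAT1-1 fell in exon 10 (chr4:186618791-186618809) and siFAT1-2 in exon 23 (chr4:186598017-186598035). Because FAT paralogues resemble each other, the closest site in each of the other members was sought, and the FAT2 site nearest to siFAT1-2 is shown beside both FAT1 targets. It lies in coding exon 10 of FAT2 (chr5:151545057-151545075, minus strand). In the FAT1 lines, capitals mark the bases that pair with bases 2 to 8 of the guide strand, its seed. In the FAT2 line, capitals mark the bases that differ from the siFAT1-2 target.
siFAT1-1 target in FAT1: gcaccacaattTCGAGCAa
siFAT1-2 target in FAT1: gcacgtgtgttGTCGACAa
closest site to siFAT1-2 in FAT2: gcaGgtgtgttgCAgacaa
Counted from 1 at the 5′ end of the 19-base target, with the base of the siFAT1-2 target first, the FAT2 site carried C4G, T13C and C14A, of which 2 lay opposite the seed. FAT2 was the only gene besides FAT1 with at most 3 mismatches to siFAT1-2 among 19983 canonical coding transcripts. The closest sites of the other members differed by 6 to 8 bases from siFAT1-2 and by 5 to 7 bases from siFAT1-1. The 7 bases that pair with the siFAT1-1 seed (TCGAGCA) also occurred 1 time in the FAT2 and 2 times in the FAT4 transcript, against 7.35% of all canonical transcripts and 20.6% of those over 10 kb with at least 1 such word. The word for siFAT1-2 (GTCGACA) occurred in no other member. These matches describe the letters and were not tested as binding.

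Libraries held between 26430049 and 47639010 counted reads, and 14360 genes passed the filter on low counts. Of the 7 members, FAT1, FAT2, FAT4, DCHS1 and FJX1 passed, and FAT3 and DCHS2 did not. Values from 1 to 20 were even in 59.6% to 62.6% of cases, against 48.85% to 50.6% above 1000, so low counts may not be independent molecules. The repeats of HN6 with NC were the least alike (r across genes 0.947). In the other groups r ran up to 0.990, with siFAT1-2 at 0.961 in HN6 and 0.970 in HN30. What changed without either HN6 NC repeat is given for many, not all, of the differences that rest on them. Squamous epithelium markers were present with counts in every HN6 library for 10 of 10 genes and in every HN30 library for 9 of 10, summing to 2372 to 6964 CPM (counts scaled to the size of the library, with TMM factors) in HN6 and 1569 to 3770 CPM in HN30. Sums of 7 fibroblast markers were 69.3 to 163.6 CPM in HN6 and 12.96 to 49.97 CPM in HN30, where NC libraries held 12.96 and 21.95 CPM and knockdown libraries 31.9 CPM or more. Endothelial markers (4 genes) reached at most 7.86 CPM, and neuron markers (4 genes) summed to 174.4 to 443.5 CPM in HN6 and 122.6 to 346.4 CPM in HN30, with STMN2 at 0. Their part in the results below was not tested, and in such bulk samples fewer cells of a type and less RNA per cell cannot be told apart.

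The first question was how far the siRNAs lowered FAT1 itself, in each library. In HN6, FAT1 stood at 56.8 and 66.8 CPM with NC, 7.60 and 13.5 CPM with siFAT1-1, and 13.2 and 21.4 CPM with siFAT1-2. In HN30, FAT1 stood at 13.6 and 14.8 CPM with NC, 4.85 and 6.25 CPM with siFAT1-1, and 10.8 and 7.75 CPM with siFAT1-2. Each of the 8 knockdown libraries thus had less FAT1 than either NC library of the same line, and no other of the 5 members tested had all 8 on one side of NC, which 5.29% of all genes tested had. Within one line, this held for FAT1 alone in HN6 (15.9% of all genes) and for FAT1 and FJX1 in HN30 (20.6% of all genes). The group means were 61.8 ± 7.09 CPM with NC, 10.6 ± 4.18 CPM with siFAT1-1 and 17.3 ± 5.81 CPM with siFAT1-2 in HN6 (SD, n = 2). In HN30 they were 14.2 ± 0.81, 5.55 ± 0.99 and 9.27 ± 2.15 CPM (SD, n = 2), so siFAT1-1 left 17.1% of the NC level in HN6 and 39.1% in HN30.

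FAT1 fell by 1.59 on the log2 scale with both siRNAs together (SE 0.31, edgeR quasi-likelihood test, Benjamini-Hochberg adjusted p = 0.0413), the 1 member called of 5 tested, against 0.522% of all genes. It fell by 2.00 with siFAT1-1 (SE 0.32, edgeR adjusted p = 0.00652, background 3.15% called) and by 1.27 with siFAT1-2 (SE 0.31, edgeR adjusted p = 0.0237, background 11.3% called). With the repeat number as a block, the call over both siRNAs was lost (log2 change -1.62, edgeR adjusted p = 0.0783), while each siRNA alone stayed called. It was also lost without each of 11 libraries in turn and kept without HN30 siFAT1-2 repeat 1 (log2 change -1.77 to -1.41, edgeR adjusted p 0.0255 to 0.124 over all 12), and without HN6 siFAT1-2 repeat 1 the call for siFAT1-2 alone was lost (log2 change -1.07, edgeR adjusted p = 0.0737).

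Within one line, no member passed the threshold. FAT1 changed by -2.19 in HN6 (SE 0.29, edgeR adjusted p = 0.0550, background 0.00696% called) and by -0.98 in HN30 (SE 0.30, edgeR adjusted p = 0.207, background 0.0557% called). Without HN6 NC repeat 1 the HN6 value was -2.32 with an edgeR adjusted p of 0.00275, where 1620 of 14743 genes tested were called, and without HN6 NC repeat 2 it was -2.10 with 0.0532. Without HN6 siFAT1-2 repeat 2 it was -2.39 with 0.0422, where 56 genes (0.38%) were called. The difference between lines was -1.21 (95% interval -2.17 to -0.25, unadjusted P = 0.0185, edgeR adjusted p = 0.979), so a larger change in HN6 was not shown. No gene was called for this interaction by edgeR (background 0.0%), 576 had an unadjusted P under 0.05, and DESeq2 called 2. Without HN6 NC repeat 1 edgeR called 870 genes (5.9%), FAT1 not among them (log2 difference -1.33, edgeR adjusted p = 0.175). The siRNAs themselves differed by -0.73 for FAT1 (siFAT1-1 minus siFAT1-2, 95% interval -1.40 to -0.06, edgeR adjusted p = 0.118, background 16.8% called).

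**Figure D1:**
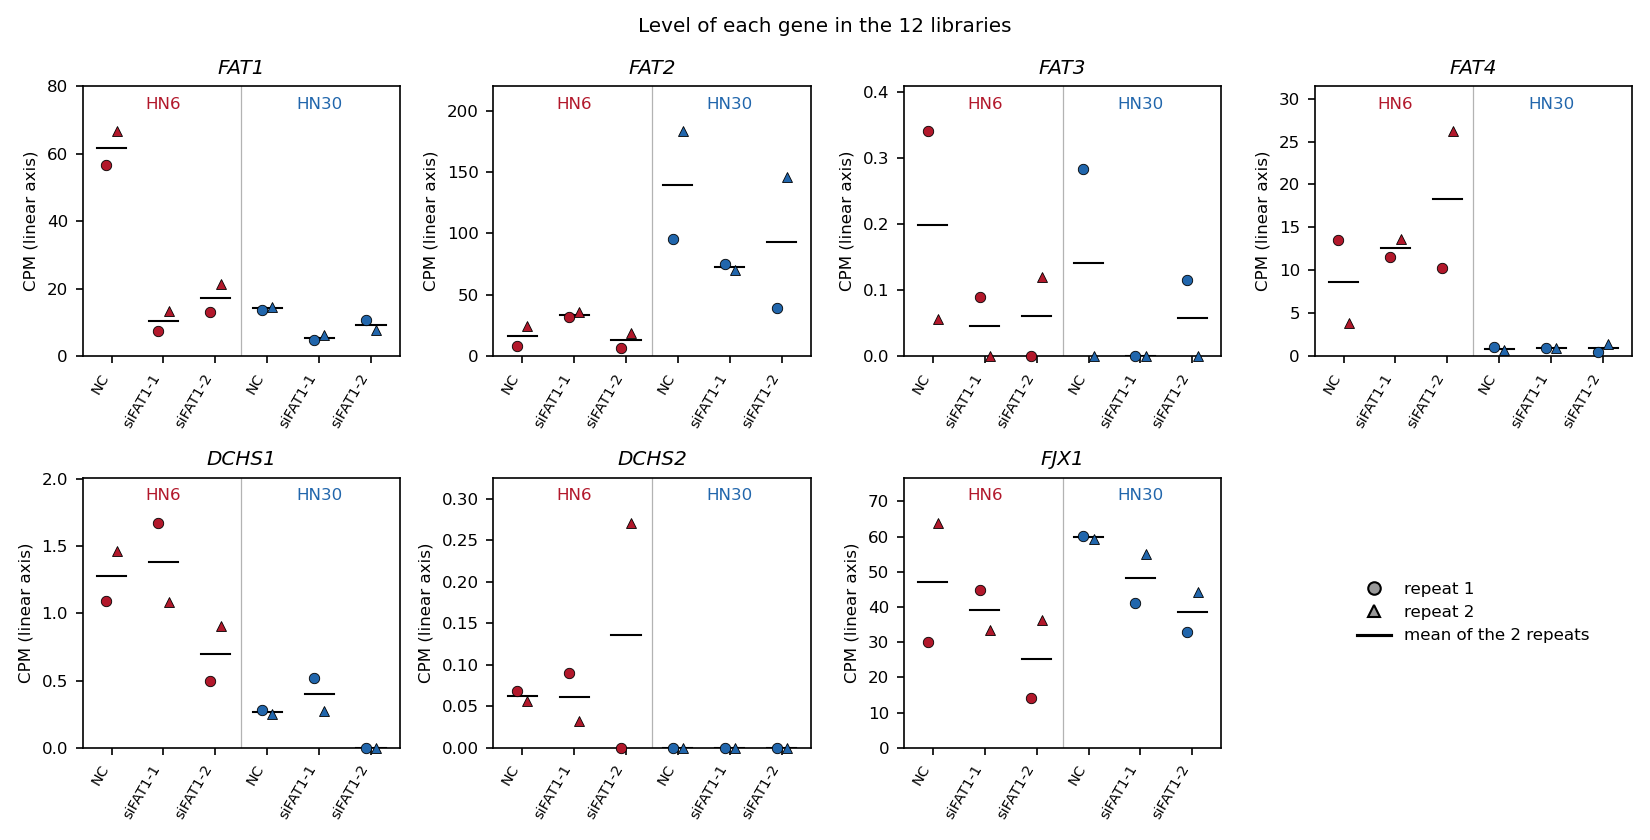
Level of each of the 7 genes in CPM (linear vertical axis, its own scale in each panel) for NC, siFAT1-1 and siFAT1-2 in HN6 (red) and HN30 (blue). Circles are repeat 1, triangles repeat 2 and bars the mean of the 2 repeats; FAT1 with siRNA lies below both NC points in both lines, while FAT2, FAT4 and FJX1 with NC differ widely between the HN6 repeats.

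The second question was how much of each family member the lines carried before FAT1 was lowered. Levels were set per length of the canonical transcript (RPKM, the same scaling per kilobase), since these transcripts run from 2406 bases for the 1-exon FJX1 to 19504 bases for FAT3. In hg38, FAT1 (ENSG00000083857) spans chr4:186587794-186726722, FAT2 (ENSG00000086570) chr5:151504092-151591331, FAT3 (ENSG00000165323) chr11:92224818-92896473 and FAT4 (ENSG00000196159) chr4:125314918-125492932. DCHS1 (ENSG00000166341) spans chr11:6621330-6655809, DCHS2 (ENSG00000197410) chr4:154231742-154491799 and FJX1 (ENSG00000179431) chr11:35618460-35620865. With NC, FJX1 was highest per length in both lines, at 19.5 ± 9.96 RPKM in HN6 and 24.9 ± 0.22 RPKM in HN30 (SD, n = 2). In HN6 the order continued with FAT1 (4.18 ± 0.48 RPKM), FAT2 (1.13 ± 0.79 RPKM), FAT4 (0.506 ± 0.399 RPKM), DCHS1 (0.119 ± 0.025 RPKM), FAT3 (0.0102 ± 0.0103 RPKM) and DCHS2 (0.00467 ± 0.00062 RPKM). Only FAT2 with FAT4, and FAT3 with DCHS2, overlapped their neighbour in that order between repeats. The first place of FJX1 rests on the division by length. By mean CPM with NC it lay below FAT1 in HN6 (47.0 against 61.8) and below FAT2 in HN30 (59.8 against 139.3).

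In HN30 the order was FJX1, FAT2 (9.47 ± 4.23 RPKM), FAT1 (0.960 ± 0.055 RPKM), FAT4 (0.0520 ± 0.0152 RPKM), DCHS1 (0.0250 ± 0.0020 RPKM), FAT3 (0.00726 ± 0.01026 RPKM) and DCHS2, which was at 0. Here only FAT3 and DCHS2 overlapped. The lines thus exchanged FAT1 and FAT2: the level of FAT1 per length lay above that of FAT2 in both HN6 NC libraries and below it in both HN30 NC libraries. The order was the same with the union of exons as the length. Ranks were taken among 57 listed cadherins, a list that does not hold every cadherin (the CELSR genes are not in it). There, the mean level per length of FAT1 ranked 11 in HN6 and 16 in HN30, FAT2 ranked 16 and 8, FAT4 19 and 30, and DCHS1 26 and 35.

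**Figure D2:**
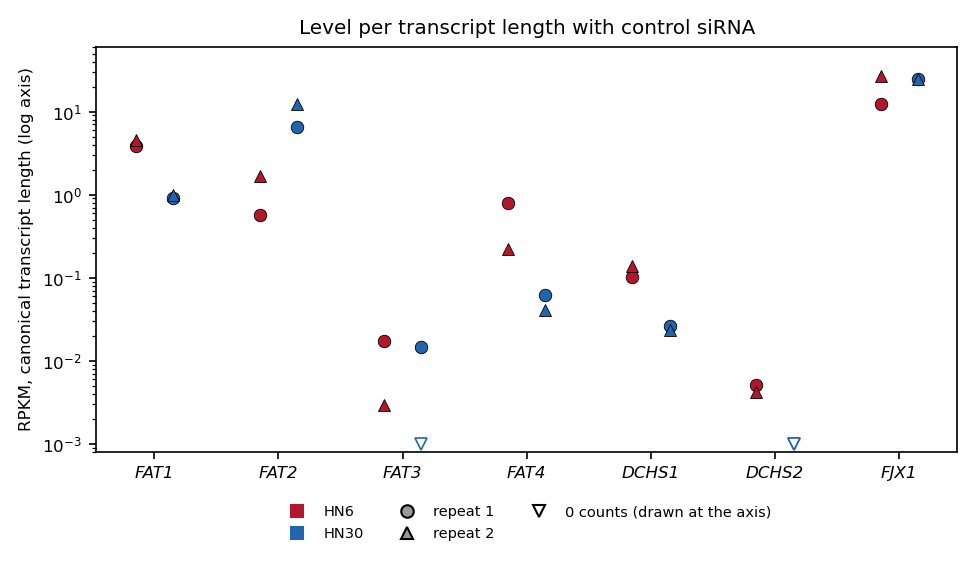
Level per transcript length with NC (RPKM, log axis) of each member in HN6 (red) and HN30 (blue), circles for repeat 1 and triangles for repeat 2. Open inverted triangles at the axis mark libraries with 0 counts; FAT1 is above FAT2 in HN6, FAT2 above FAT1 in HN30 (9.47 against 0.960 RPKM), and FAT3, DCHS1 and DCHS2 are at or below 0.137 RPKM.

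FAT1, FAT4 and DCHS1 were higher in HN6 and FAT2 was higher in HN30. That made 4 of the 5 members tested called between the lines with NC, against 31.3% of all genes tested. DCHS1 passed the filter on low counts only through HN6, where it was high, so its place in this count depends on the filter. FAT1 was higher in HN6 by 2.12 on the log2 scale (SE 0.36, edgeR adjusted p = 0.00253), with 56.8 and 66.8 CPM against 13.6 and 14.8 CPM, and stayed called without any single library.

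FAT2 stood at 8.39 and 24.9 CPM in HN6 with NC and at 95.3 and 183.3 CPM in HN30 with NC. It was lower in HN6 by a log2 difference of -3.06 (SE 0.73, edgeR adjusted p = 0.0117), which ran from -4.04 without HN6 NC repeat 2 to -2.47 without HN6 NC repeat 1 and lost the call without HN30 NC repeat 2 (-2.52, edgeR adjusted p = 0.0649). The lines did not overlap for FAT2 in any condition: HN6 reached at most 35.8 CPM over its 6 libraries and HN30 fell no lower than 39.4 CPM.

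FAT4, the receptor of DCHS1, stood at 13.5 and 3.84 CPM in HN6 with NC and at 1.08 and 0.707 CPM in HN30 with NC. The log2 difference was 3.28 (SE 0.71, edgeR adjusted p = 0.00774), 2.13 without HN6 NC repeat 1 and 3.93 without HN6 NC repeat 2, and the call was lost without HN30 NC repeat 2 (3.01, edgeR adjusted p = 0.0659). Over all conditions FAT4 lay between 3.84 and 26.2 CPM in HN6 and between 0.519 and 1.40 CPM in HN30, again without overlap. FAT2 and FAT4 were the 2 of 5 members whose lines did not overlap over 6 against 6 libraries, beside 25.7% of all genes tested.

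DCHS1, the ligand of FAT4, had few counts, 84 in both HN6 NC libraries and 20 in both HN30 NC libraries together. It stood at 1.09 and 1.47 CPM in HN6 with NC and at 0.283 and 0.253 CPM in HN30 with NC, a log2 difference of 2.24 (SE 0.64, edgeR adjusted p = 0.0271). Without either HN30 NC library or without HN6 NC repeat 2 that call was lost, over an edgeR adjusted p of up to 0.131. Exons of DCHS1 overlap antisense RNAs, among them DCHS1-AS1, and exons of FAT2 and DCHS2 also overlap genes of the opposite strand; the use of strand in the counting is not given in the sources used here, so such reads cannot be told apart.

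FJX1 did not pass between the lines. It stood at 30.1 and 64.0 CPM in HN6 with NC and at 60.2 and 59.4 CPM in HN30 with NC, so HN30 lay inside the HN6 range. The log2 difference was -0.35 (95% interval -1.35 to 0.66, edgeR adjusted p = 0.587), and its sign turned without HN6 NC repeat 1 (0.12).

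FAT3 and DCHS2 were at the limit of detection. FAT3 had at most 10 counts in any library, 10 in repeat 1 of each line with NC, and was at 0 in 6 of the 12 libraries. DCHS2 had 18 counts over the 6 HN6 libraries, of which 9 came from siFAT1-2 repeat 2, and 0 in all 6 HN30 libraries. These zeros allow a level of up to 0.0148 CPM (3 counts over these libraries, counting error only, with counts taken as independent molecules). With the filter left off, the log2 change over both siRNAs was -1.93 for FAT3 (95% interval -4.32 to 0.45, edgeR adjusted p = 0.498) and 0.56 for DCHS2 (95% interval -2.47 to 3.58, edgeR adjusted p = 0.881), so differences of this size were not detectable at this depth. FAT3 in HN30 had 0 counts in both siFAT1-1 libraries and in NC repeat 2, with all 10 NC counts from repeat 1, so no minimum fold change is given.

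The third question was whether a paralogue, ligand or FJX1 moved when FAT1 was lowered. No other member was called over both siRNAs, for either siRNA, or within either line (edgeR, adjusted p from 0.117 to 0.974 over these 5 comparisons and the 4 other members tested). The intervals show what remains possible. Over both siRNAs, the log2 change was -0.18 for FAT2 (95% interval -1.20 to 0.85), 0.49 for FAT4 (-0.38 to 1.35), -0.37 for DCHS1 (-1.94 to 1.199) and -0.51 for FJX1 (-1.10 to 0.09), so a change of 2-fold was outside the interval in both directions for none of them.

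**Figure D3:**
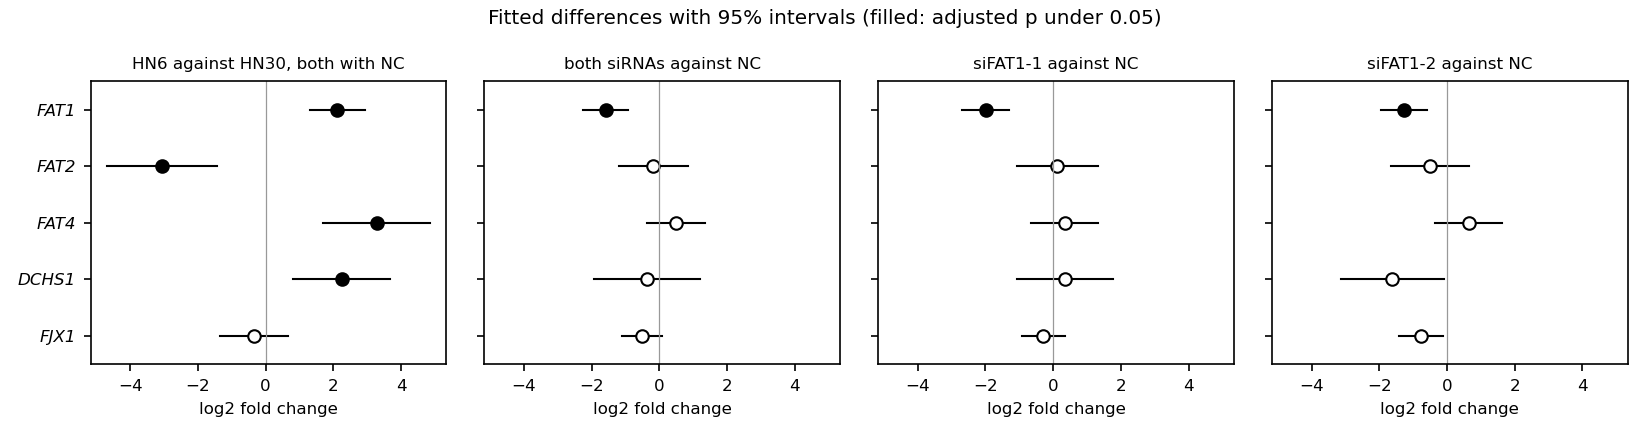
Fitted log2 fold changes (points) with 95% intervals (lines) of the 5 members that passed the filter, for HN6 against HN30 with NC and for the siRNAs against NC over both lines; filled points have an adjusted p under 0.05. FAT1, FAT2, FAT4 and DCHS1 are filled between the lines, and only FAT1 is filled for the siRNAs.

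FAT2 lay on opposite sides of NC in the 2 lines with siFAT1-1, and not with siFAT1-2. With siFAT1-1 it stood at 32.2 and 35.8 CPM in HN6, above both NC libraries (8.39 and 24.9 CPM), and at 75.0 and 70.2 CPM in HN30, below both NC libraries (95.3 and 183.3 CPM). With siFAT1-2 it stood at 6.996 and 19.1 CPM in HN6 and at 39.4 and 146.1 CPM in HN30, overlapping NC in both lines. The siFAT1-2 libraries followed their own repeat: each lay below the NC library of the same line and repeat, at 83.4% and 76.7% of it in HN6 and 41.3% and 79.7% in HN30.

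The tests over both lines did not separate these FAT2 values from the spread, and opposite changes in the lines cancel in them. A test of the difference between the lines with siFAT1-1 failed the correction and is given in the closing section. Over both lines the log2 change was 0.13 with siFAT1-1 (95% interval -1.06 to 1.32, edgeR adjusted p = 0.925) and -0.49 with siFAT1-2 (95% interval -1.65 to 0.66, edgeR adjusted p = 0.576). The near match of siFAT1-2 to FAT2 shown above stands beside the second value, and its part was not tested.

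FAT4 differed by repeat: in both lines and with both siRNAs it lay below the NC library of the same repeat in repeat 1 and above it in repeat 2. Both siRNAs were set against the same NC libraries. With siFAT1-1, FAT4 differed less between the repeats than with NC in each line. In HN6 it stood at 11.6 and 13.7 CPM with siFAT1-1 and at 10.3 and 26.2 CPM with siFAT1-2, around NC at 13.5 and 3.84 CPM. Against the NC library of the same repeat, siFAT1-2 gave 76.2% in repeat 1 and 683.5% in repeat 2 of HN6. In HN30, FAT4 stood at 0.970 and 0.954 CPM with siFAT1-1 and at 0.519 and 1.40 CPM with siFAT1-2, also around NC. Its log2 change over both siRNAs was 0.13 without HN6 NC repeat 2 and 0.74 without HN6 NC repeat 1. Within HN6 it was 0.81 (95% interval -0.46 to 2.08, edgeR adjusted p = 0.552), 0.14 without HN6 NC repeat 2 and 1.97 without HN6 NC repeat 1 (edgeR adjusted p = 0.0914).

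DCHS1 was lower with siFAT1-2 in every library, without passing the test. It stood at 0.498 and 0.904 CPM in HN6, below both NC libraries, and had 0 counts in both HN30 libraries, against 10 and 10 counts with NC. The HN30 zeros put siFAT1-2 at least 6.14-fold lower than NC only if counts are independent molecules, which was not shown for low counts. This bound is set against 3 counts over the group, takes the NC counts as exact and covers counting error only. With siFAT1-1, DCHS1 stood at 1.68 and 1.08 CPM in HN6 and at 0.522 and 0.277 CPM in HN30, overlapping NC in both lines. Over both lines the log2 change with siFAT1-2 was -1.62 (95% interval -3.14 to -0.10, unadjusted P = 0.0385, edgeR adjusted p = 0.152). The difference between the siRNAs was 1.97 (siFAT1-1 minus siFAT1-2, 95% interval 0.43 to 3.51, edgeR adjusted p = 0.0748), which passed with limma-voom (adjusted p = 0.0356), with DESeq2 (adjusted p = 0.0108) and with edgeR without HN6 siFAT1-2 repeat 2 (adjusted p = 0.0395).

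FJX1 was also lower with siFAT1-2, by a smaller amount. In HN30 it stood at 41.1 and 55.2 CPM with siFAT1-1 and at 32.9 and 44.4 CPM with siFAT1-2, all 4 below both NC libraries (60.2 and 59.4 CPM). In HN6 it stood at 44.9 and 33.4 CPM with siFAT1-1 and at 14.2 and 36.2 CPM with siFAT1-2, against NC at 30.1 and 64.0 CPM, with overlap. The log2 change with siFAT1-2 was -0.76 (95% interval -1.41 to -0.12, unadjusted P = 0.0245, edgeR adjusted p = 0.117). It was -0.93 without HN6 NC repeat 1 and -0.52 without HN6 NC repeat 2.

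With siFAT1-2, 4 of the 5 members tested (FAT1, FAT2, DCHS1 and FJX1) lay below the NC library of the same line and repeat in 4 of 4 pairs, beside 21.0% of all genes tested. With siFAT1-1 this held for FAT1 alone, beside 13.8% of all genes. The 4 NC libraries are shared by both siRNAs. FAT1 counts in both cases, and as the target of the siRNAs its fall is what the design aimed at. Of the 4 members with siFAT1-2, the test called FAT1 alone. It did not call FAT2, DCHS1 or FJX1 (edgeR adjusted p = 0.576, 0.152 and 0.117).

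The thresholds the study used with limma-voom (unadjusted P under 0.05 and an absolute log2 change above 1) were applied here to the edgeR fits. FAT1 passed over both siRNAs (1 of 5 members, beside 3.2% of all genes), within HN6 (1 of 5, beside 4.12%) and with siFAT1-1 (1 of 5, beside 5.77%). DCHS1 passed within HN30 (1 of 5, beside 5.59%) and between the siRNAs (1 of 5, beside 12.6%). FAT1 and DCHS1 both passed with siFAT1-2 (2 of 5, beside 9.16%) and for the interaction (2 of 5, beside 2.59%), and the same 4 members as before passed between the lines (beside 30.5%). DCHS1 did not pass for the interaction with limma-voom (log2 difference 1.49, limma-voom unadjusted P = 0.0867) or with DESeq2 (2.17, DESeq2 unadjusted P = 0.0543). Both HN30 libraries with siFAT1-2 had no DCHS1 counts, so the size of its fitted change within HN30 and for the interaction depends on the prior count. FAT2 with siFAT1-1 was on opposite sides of NC in the lines, as 3.14% of all genes were.

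**Figure D4:**
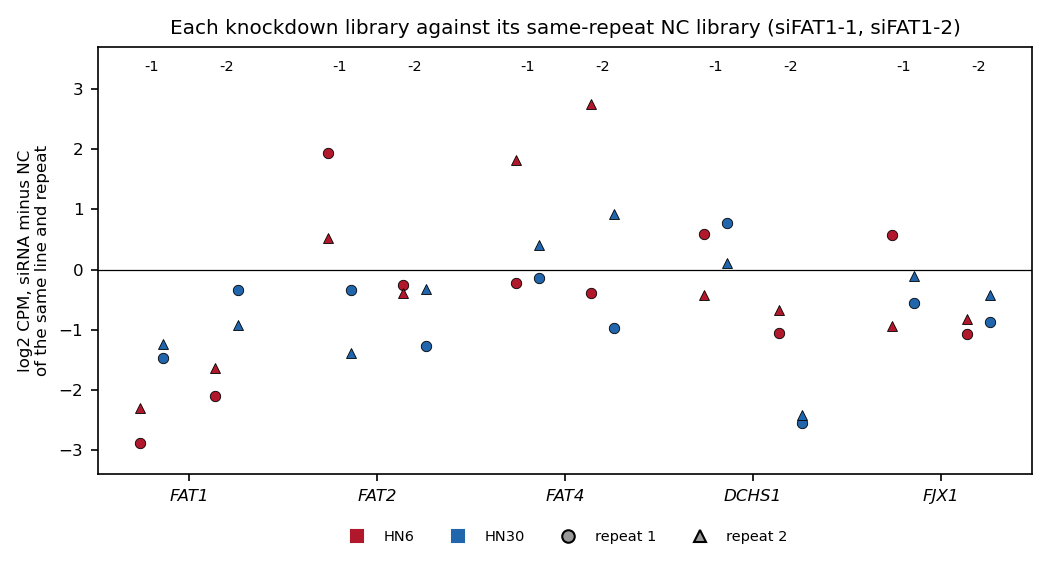
Difference in log2 CPM (prior count 2) of each knockdown library from the NC library of the same line and repeat, for siFAT1-1 (columns marked -1) and siFAT1-2 (columns marked -2); HN6 red, HN30 blue, circles repeat 1, triangles repeat 2. All 8 FAT1 points are below 0, FAT2 with siFAT1-1 is split by line, FAT4 is split by repeat, and the DCHS1 points at -2.55 and -2.42 are the HN30 libraries with 0 counts.

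Set per length, FAT1 made up 73.6% and 70.2% of the summed level of FAT1 to FAT4 in HN6 with NC. That share was 15.2% and 22.1% with siFAT1-1 and 45.4% and 33.8% with siFAT1-2. FAT2 made up 64.7% and 58.7% of the sum in HN6 with siFAT1-1, against 10.9% and 26.3% with NC, so FAT2 and not FAT1 was the most abundant FAT transcript there. In HN30, FAT1 made up 12.3% and 7.40% with NC and between 4.98% and 21.2% with the siRNAs, and FAT2 between 77.75% and 94.25% in every library.

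The summed level of FAT1 to FAT4 was 5.83 ± 0.86 RPKM in HN6 with NC (SD, n = 2), 3.77 ± 0.54 RPKM with siFAT1-1 and 3.12 ± 1.64 RPKM with siFAT1-2. In all 4 HN6 knockdown libraries it lay below both NC libraries (5.22 and 6.44 RPKM). In HN30 the sum was 10.5 ± 4.26 RPKM with NC, 5.37 ± 0.16 RPKM with siFAT1-1 and 6.99 ± 5.02 RPKM with siFAT1-2, and siFAT1-2 overlapped NC. FAT1, the siRNA target, is part of these sums. In HN6 the sum of FAT2 to FAT4 was 1.375 and 1.918 RPKM with NC. It was 2.871 and 3.231 RPKM with siFAT1-1, above both, and 1.075 and 2.832 RPKM with siFAT1-2. In HN30 it was 6.555 and 12.5 RPKM with NC, 5.158 and 4.831 RPKM with siFAT1-1, and 2.714 and 10.02 RPKM with siFAT1-2. All these sums and shares are descriptions without a test.

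**Figure D5:**
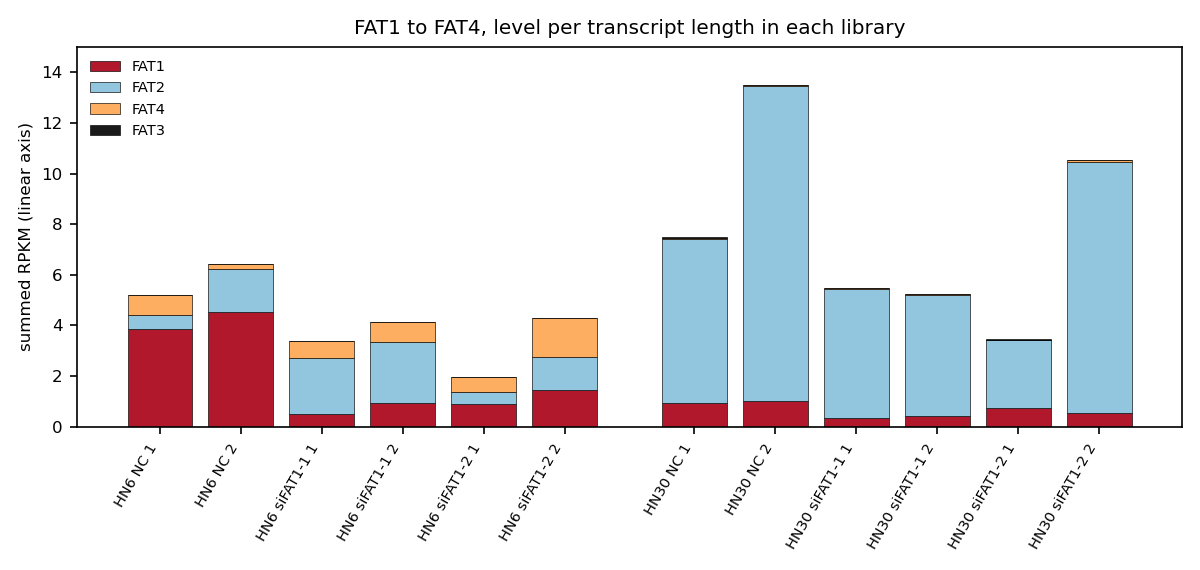
Summed level per transcript length of FAT1 (red), FAT2 (light blue), FAT4 (orange) and FAT3 (black, too small to see) in each library (RPKM, linear axis from 0). FAT1 is the largest part of the HN6 NC bars and FAT2 of all 6 HN30 bars, and the HN30 sums range from 3.44 to 13.5 RPKM.

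The surrounding pathway was read from lists of known genes. Over both siRNAs, 0.522% of all genes were called and 14.2% had an unadjusted P under 0.05. Of 32 partners of FAT and Dachsous proteins, 29 were tested; 0 were called over both siRNAs by edgeR (7 at an unadjusted P under 0.05) and their median log2 change was 0.05, beside 0.02 over all genes. Of 22 core planar cell polarity genes, 21 were tested, with 0 called (2 at an unadjusted P under 0.05) and a median of -0.09. Of 22 Hippo genes, all were tested, with 0 called (4 at an unadjusted P under 0.05) and a median of 0.07. Of 51 other cadherins, 38 were tested, with 0 called (4 at an unadjusted P under 0.05) and a median of 0.22.

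Between the lines with NC, 7 of 29 partners were called (1 higher and 6 lower in HN6), a share of 24.1% beside the background of 31.3%, with a median log2 difference of -0.40 beside -0.01 over all genes. EVL, an Ena/VASP protein of the family that binds FAT1, had 0 counts in both HN6 NC libraries and 8.80 and 10.4 CPM in HN30. It was thus at least 208-fold lower in HN6 (this and the other such bounds below are set against 3 counts over the group at 0 and cover counting error only). Such bounds take counts as independent molecules and the other group as exact. AMOT, an angiomotin that binds YAP, was lower in HN6 by a log2 difference of -2.77 (edgeR adjusted p = 0.00349), and ZDHHC5, a palmitoyltransferase, was higher by 0.90 (edgeR adjusted p = 0.00779).

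Of the planar cell polarity genes, 7 of 21 were called (2 higher and 5 lower in HN6, 33.3%), with a median of 0.09. VANGL2, a core membrane protein of the pathway, stood at 0.375 and 1.95 CPM in HN6 and 43.0 and 48.5 CPM in HN30 (log2 difference -5.28, edgeR adjusted p = 0.00103), and ANKRD6 at 0.0682 and 0 CPM in HN6 and 1.08 and 0.606 CPM in HN30. FUZ, a planar polarity effector of cilia, was higher in HN6 by 3.69 (edgeR adjusted p = 0.00243) and DVL3, a Dishevelled protein, by 1.19 (edgeR adjusted p = 0.00424).

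Of the Hippo genes, 5 of 22 were called (2 higher and 3 lower in HN6, 22.7%), with a median of -0.11. YAP1, the coactivator that the pathway restrains, was lower in HN6 by a log2 difference of -2.09 (edgeR adjusted p = 0.000191) and the kinase STK3 by -1.49 (edgeR adjusted p = 0.00491). ANKRD1 and AXL, known as targets of YAP, were higher in HN6, by 6.97 (edgeR adjusted p = 0.00193) and 2.85 (edgeR adjusted p = 0.000898). Of the other cadherins, 13 of 38 were called (7 higher and 6 lower in HN6, 34.2%), with a median of 0.08. PCDH15 was at least 5.78-fold higher in HN6 (15 counts against 0), CDH8 was at least 25.6-fold lower in HN6 (0 against 89 counts), CDH19 was lower by -3.99 (edgeR adjusted p = 0.00346), and PCDH9 stood at 3.10 and 0.903 CPM in HN6 and 0.0283 and 0 CPM in HN30. Of these 15 named genes, 12 stayed called without any single library, while ZDHHC5 lost its call without HN30 NC repeat 2 (edgeR adjusted p = 0.0667), ANKRD6 without HN6 NC repeat 2 or HN30 NC repeat 1 (up to 0.0827) and PCDH15 without each of 8 libraries (up to 0.146). Without HN6 NC repeat 1, 8 Hippo genes were called (36.4%, beside 37.0% of all genes), and without HN30 NC repeat 2, 8 other cadherins (20.5%, beside 15.3%). Without HN6 NC repeat 2 the median turned to -0.18 for the polarity genes and -0.06 for the other cadherins. For the partners, the median ran from -0.653 to -0.225 when 1 library was left out. The list medians were the same with genes at 0 in one line set to their bound.

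The genes whose levels ran most like each member were sought over the 12 libraries, after removing the mean of each line (Pearson r of log2 CPM, a description without a test). They were ADORA2A (0.945), MOK (0.936) and ARHGEF18 (0.928) for FAT1, and SCNN1A (0.921), ZNF789 (0.916) and PPIP5K1 (0.916) for FAT2. For FAT4 they were RNF138 (0.939), GNAQ (0.919) and HOMER1 (0.918), for DCHS1 ZNF425 (0.974), KIAA1755 (0.950) and VSIR (0.950), and for FJX1 ACD (0.967), IFRD2 (0.962) and POLD2 (0.961). Among the members themselves, r was highest for FAT2 with FJX1 (0.694) and lowest for FAT1 with FAT4 (-0.405). These values share the libraries, their depth and the siRNA groups.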

How the data were processed

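According to the submitters' processing notes, the authors mapped reads to hg38 with HISAT2 and counted them with featureCounts; versions, annotation and strand use are not given in the sources used here. The deposited table holds whole-number counts per gene, not normalized, for 12 libraries (0 columns of values were left out). Counts were scaled by TMM (factors 0.896 to 1.06), filtered with filterByExpr (minimum count 10) and tested over all genes with edgeR 4.0.16 (glmQLFit, glmQLFTest, common dispersion 0.143), with cell line as a term or 6 group means, and p-values adjusted by Benjamini-Hochberg (threshold 0.05). The study's thresholds (P under 0.05, absolute log2 change above 1), limma 3.58.1, DESeq2 1.42.0 and the other alternatives are in the closing section. R 4.3.3 and Python 3.11.15 were used, and the steps were tested on simulated data. Coordinates and lengths come from GENCODE 44. Entries carrying a repeated symbol (2) were kept apart.

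The members and lists were chosen with earlier results of these data known. Named genes were all members, the 3 most alike per member, and for each list the largest called differences (up to 3 each way over both siRNAs, up to 2 each way between lines); any other gene was named after its values were seen. The titles mark a repeat as a separate time, so repeat numbers pair libraries within a line. Deviations of same-numbered libraries correlated across genes at 0.0800 to 0.221 in HN6 and -0.0312 to 0.393 in HN30. The leukocyte marker list is not reported here.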

Additional observations from a re-analysis of the deposited data

Results flagged for a closer look

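FAT2 with siFAT1-1 lay on opposite sides of NC in the 2 lines: above both NC libraries in HN6 (32.2 and 35.8 against 8.39 and 24.9 CPM) and below both in HN30 (75.0 and 70.2 against 95.3 and 183.3 CPM). The same pattern, in either direction, held for 3.14% of all genes tested. A test of the difference, chosen after seeing the data, gave a log2 value of 1.97 (HN6 minus HN30, 95% interval -0.18 to 4.12, unadjusted P = 0.0684, edgeR adjusted p = 1.00), and 2.05 with the replicate block (95% interval 0.49 to 3.61, unadjusted P = 0.0157, edgeR adjusted p = 0.966). It failed the correction in both fits.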

How the results depend on the processing

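Over 40 pairs of a member and a comparison, the alternatives gave 754 values of the log2 change, of which 704 kept direction and side of the threshold, 22 lost a call, 8 gained one and 20 turned sign. No value that was called turned sign. Over both siRNAs, 0 members were called with library totals alone, with the replicate block or without a cell line term, and leaving out 1 library gave 0 to 1. Between the lines with NC, leaving out 1 library gave 1 to 4 called members, the 1 being FAT1 without HN30 NC repeat 2. Within HN6, FAT1 became called with DESeq2, limma-voom, no filter and the study's thresholds (1 member each), and leaving out 1 library gave 0 to 1. The study's thresholds on the edgeR fits gave 1 member within HN30, 2 for the interaction, 2 for siFAT1-2 and 1 for the difference between siRNAs, where DESeq2 and limma-voom also gave 1 and leaving out 1 library 0 to 1. Without a cell line term, siFAT1-1 and siFAT1-2 gave 0 each, and leaving out 1 library gave 0 to 1 for siFAT1-2. The replicate block, for repeats paired by time, changed no other member's call. Where no construction of the alternative shows it, the cause was not tested.

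Changes of sign when 1 library was left out are given as ranges: FAT2 over both siRNAs -0.52 to 0.21, within HN6 -0.25 to 1.30 and with siFAT1-1 -0.25 to 0.46; FAT4 within HN30 -0.33 to 0.44, with siFAT1-1 -0.04 to 0.60 and between siRNAs -0.56 to 0.16; FJX1 between lines -0.98 to 0.12, within HN6 -1.04 to 0.031 and for the interaction -0.56 to 0.51; DCHS1 with siFAT1-1 -0.05 to 0.63. FAT2 with siFAT1-1 was -0.085 with limma-voom and -0.55 without a cell line term, and the FJX1 interaction was 0.012 with library totals.

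Counts of all genes depended on the tool. Over both siRNAs 75 genes were called, 638 with DESeq2, 44 with the replicate block and 4 without a cell line term. Within HN6 there was 1, against 448 with DESeq2, 10 with no filter, 6 with limma-voom, 3 with DESeq2 size factors and 0 in a fit of HN6 alone. Within HN30 there were 8, against 542 with DESeq2, 44 in a fit of HN30 alone, 15 with no filter, 4 with DESeq2 size factors, 3 with library totals and 1 with the block; DCHS1 gave no value in the fit of HN30 alone, which filtered it out. DESeq2 called 1191 for siFAT1-1 (452) and 2699 for siFAT1-2 (1618), and no cell line term left 25, 58 and, between siRNAs, 270 of 2406. The line term over all libraries called 8125 against 4500, and DESeq2 called 2 for the interaction against 0. Leaving out 1 library gave 1 to 59 genes over both siRNAs, 1 to 1620 within HN6, 1 to 42 within HN30, 0 to 870 for the interaction, 113 to 689 for siFAT1-1, 632 to 1630 for siFAT1-2, 979 to 3354 between siRNAs and 2251 to 5454 between lines. Library totals moved the median of all genes by up to -0.17 (HN6 against HN30) and the split of higher to lower calls from 2320 and 2180 to 1837 and 2651 there, from 41 and 34 to 48 and 22 over both siRNAs, from 4 and 4 to 3 and 0 within HN30, from 596 and 1022 to 832 and 688 for siFAT1-2, and from 1381 and 1025 to 1118 and 1424 between siRNAs.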

Other observations

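Some cadherins and pathway genes were called with 1 of the siRNAs and not the other, chosen here after their values were seen. How these calls change without either HN6 NC library is not given here. With siFAT1-1, the epithelial cadherin CDH1 rose by 0.93 on the log2 scale (SE 0.19, edgeR adjusted p = 0.0220), CCN1, known as a target of YAP, by 1.42 (SE 0.34, edgeR adjusted p = 0.0444), and the kinase LATS2 changed by -0.78 (SE 0.16, edgeR adjusted p = 0.0238). With siFAT1-2, the desmosomal cadherin DSG3 rose by 1.72 (SE 0.30, edgeR adjusted p = 0.00629), while the seven-pass cadherin CELSR1 changed by -1.08 (SE 0.21, edgeR adjusted p = 0.00905), CDH13 by -1.41 (SE 0.29, edgeR adjusted p = 0.0128), AXL by -0.99 (SE 0.26, edgeR adjusted p = 0.0318) and RERE, one of the atrophin proteins, by -0.94 (SE 0.18, edgeR adjusted p = 0.00853). The difference between the siRNAs was called for CDH1 (0.86, siFAT1-1 minus siFAT1-2, edgeR adjusted p = 0.0115), DSG3 (-0.95, edgeR adjusted p = 0.0427), CELSR1 (1.77, edgeR adjusted p = 0.000781), CDH13 (1.83, edgeR adjusted p = 0.00275) and AXL (1.00, edgeR adjusted p = 0.0236). It was not called for CCN1 (0.74, edgeR adjusted p = 0.148), LATS2 (-0.43, edgeR adjusted p = 0.0904) or RERE (0.44, edgeR adjusted p = 0.102). Against 3.15% of all genes with siFAT1-1 and 11.3% with siFAT1-2, the called shares were 5.26% and 7.89% of 38 other cadherins (2 and 3 genes), 9.09% and 13.6% of 22 Hippo genes (2 and 3), 3.45% and 17.2% of 29 partners (1 and 5), and 0% and 4.76% of 21 polarity genes (0 and 1). Not every called gene of these lists is named here. With siFAT1-2, the called genes were 2 cadherins higher and 1 lower, 1 Hippo gene higher and 2 lower, and 2 partners higher and 3 lower.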
